A study of Mus musculus with 6 samples.

Results

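The numbered Zfp genes are mouse genes named Zfp and a number, for zinc finger protein. They were taken as the protein-coding rows of the deposited count table whose symbol is Zfp followed by digits only and that had at least 2 CPM (counts scaled to a common column total) in all 6 libraries. The genes were thus chosen by their levels in these libraries. This rule gave 222 genes, out of 363 numbered protein-coding Zfp genes and 45777 genes in the table. Of the other 141 numbered genes, 26 did not pass the expression filter of the test and 115 did. The minimum applied to every library, so the 222 genes are those that reached it in both groups, and their levels are a description. Just inside the minimum were Zfp324 and Zfp964, whose lowest library had 2.04 and 2.05 CPM. Just outside it were Zfp692 and Zfp101, both with 1.98 CPM in their lowest library. For Zfp101 the log2 fold change was 1.09 at an adjusted p of 0.0120, and with the correction for GC content and length used below it was 0.85 (0.0361), so the 222 genes do not hold every numbered Zfp gene that passed the test.

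Most of these proteins carry C2H2 zinc fingers, short loops in which a pair of cysteines and a pair of histidines hold a zinc ion, and fingers in a row each contact a few bases of DNA. Many also carry a KRAB box, which recruits the corepressor Trim28 (KAP1) and through it the histone methyltransferase Setdb1 and heterochromatin proteins. KRAB zinc finger proteins are best known for silencing retrotransposons, their genes lie in clusters that arose by duplication, and most have no described role in brown fat. In fat tissue the family is known through single members such as Zfp423, which sets the adipocyte lineage.

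The tissue was brown adipose tissue, which burns fat to make heat, from male wild type C57Bl6/J mice. The mice received phosphate-buffered saline (PBS) or ginsenoside Rb2, a saponin of ginseng, by intraperitoneal injection over 2 weeks, and 3 mice of each group gave 1 poly(A) RNA library each. Age and dose are not stated in the labels. The table names the libraries PBS 1, 2 and 4 and Rb2 1, 3 and 4.

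Total counts ran from 83642183 to 92666780 per library, and the 222 genes took 0.217% to 0.278% of them. Brown adipocyte markers were abundant in all 6 libraries, with a summed level of 12335 to 16595 CPM over 10 genes. Skeletal muscle markers were not evenly spread: 15 genes summed to 2357, 7153 and 7.87 CPM in PBS 1, 2 and 4, whereas Rb2 1, 3 and 4 had sums of 0.9796, 440 and 259 CPM. In PBS 4, 2 of the 15 were at 0, and in Rb2 1, 8 were. The libraries also differed in a trend with the GC content of the transcript. Spearman's rho across genes between GC content and the deviation of a gene from its mean over the libraries was 0.00416, 0.349 and 0.388 in PBS 1, 2 and 4, whereas it was -0.289, -0.254 and -0.134 in Rb2 1, 3 and 4. The groups did not overlap in this trend, so the trend and the treatment cannot be told apart, and the counts of calls and the genes called are given without and, where stated, with an offset for transcript GC content and length. In bulk tissue, fewer cells of a type and less RNA per cell cannot be told apart.

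Translation of the longest coding sequence of each gene in the GENCODE annotation found a median of 10 C2H2 fingers per protein and at most 31, in Zfp236. A KRAB pattern was found in 107 of the 222 proteins and a SCAN pattern, another interaction domain of this family, in 5. No C2H2 finger was found in 7 of them: Zfp185, Zfp326, Zfp330, Zfp36, Zfp503, Zfp703 and Zfp839. The search used a pattern of fixed spacing, which would miss a finger of other spacing. Zfp36 (tristetraprolin), which binds AU-rich messenger RNA and speeds its decay, has 2 fingers of the CCCH kind instead. The name therefore covers proteins that differ in kind, and the fold changes are given by these classes further on.

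The genes also differed in base composition, and the finger-coding sequence shows it. Below is 1 finger from each of 7 genes described later, 5′ to 3′ on the coding strand in GRCm38. Only fingers followed by the usual linker to the next finger were eligible, and the one shown has the GC content nearest to their median in that gene. Capitals mark the 15 bases that encode this linker, the most conserved stretch of the repeat, which the choice required.
Zfp760, finger at chr17:21722473-21722550, + strand: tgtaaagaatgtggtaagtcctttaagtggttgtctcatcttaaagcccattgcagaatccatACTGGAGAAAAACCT
Zfp229, finger at chr17:21746063-21746140, + strand: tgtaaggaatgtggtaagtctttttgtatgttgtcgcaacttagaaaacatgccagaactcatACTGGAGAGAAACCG
Zfp971, finger at chr2:178033006-178033083, + strand: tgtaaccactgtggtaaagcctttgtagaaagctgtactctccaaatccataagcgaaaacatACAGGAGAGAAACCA
Zfp617, finger at chr8:71933004-71933081, + strand: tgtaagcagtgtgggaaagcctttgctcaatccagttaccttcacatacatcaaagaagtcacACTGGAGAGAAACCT
Zfp768, finger at chr7:127344016-127344093, - strand: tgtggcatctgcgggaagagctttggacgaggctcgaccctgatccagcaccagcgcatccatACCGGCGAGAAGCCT
Zfp629, finger at chr7:127612108-127612185, - strand: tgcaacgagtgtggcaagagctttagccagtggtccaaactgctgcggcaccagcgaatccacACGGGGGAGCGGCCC
Zfp771, finger at chr7:127253856-127253933, + strand: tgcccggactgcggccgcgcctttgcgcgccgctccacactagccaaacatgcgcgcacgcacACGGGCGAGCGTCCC
The first 4, from KRAB genes, held 38.5%, 39.7%, 41.0% and 43.6% GC. The other 3, from genes without a KRAB pattern, held 61.5%, 62.8% and 73.1% GC. A like repeat was thus spelled in AT-rich codons in the first genes and in GC-rich codons in the last. Over the whole longest transcript the 222 genes had a median GC content of 44.8% (33.2% to 68.7%), against 49.8% over all tested genes.

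Without correction, 31 of the 222 genes were higher after Rb2 and 3 were lower (quasi-likelihood test of edgeR, Benjamini-Hochberg adjusted p under 0.05 over 16707 genes). Over all genes tested, 10.4% were called, 5.33% higher and 5.11% lower. The numbered Zfp genes were called higher in 14.0% and lower in 1.35%. Their median log2 fold change was 0.28, against -0.01 over all genes, and 159 of 222 lay above 0. The 3 libraries of each group did not overlap in 98 genes that were higher after Rb2 (44.1%, against 18.2% of all genes tested) and in 11 that were lower (4.95%, against 17.6%). All 34 called genes were among these.

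With the offset for GC content and length, 14 genes were called higher and 1 lower. The share called over all genes was then 8.13%, with 4.27% higher and 3.86% lower, and the numbered Zfp genes were called higher in 6.31%. Of the 31 earlier rises 13 remained, as did 1 of the 3 falls, and Zfp768 was added. The median log2 fold change was 0.12, against -0.02 over all genes, and 150 of 222 genes lay above 0. The offset lowered the log2 fold change of 160 of the 222 genes.

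The count of called genes rested on single libraries. Without PBS 1 the genes called higher numbered 3, and without PBS 2 they numbered 4. In these fits the genes called in either direction over all tested genes fell as well, from 1743 to 334 and 303, and with the offset from 1358 to 41 and 128. The count was 22 without PBS 4, 9 without Rb2 1, 13 without Rb2 3 and 32 without Rb2 4. With the offset these counts were 0, 1, 14, 5, 3 and 12, in the same order, and 30 genes were higher at an unadjusted p under 0.05 in the fit that gave 0. Over all 17156 genes tested in that fit, 3505 were at such a p in either direction. Without both PBS 1 and PBS 2 no gene was called by edgeR, with 37 of the 222 higher at an unadjusted p under 0.05. The median log2 fold change moved less: it stayed between 0.22 and 0.31 without any 1 library, and between 0.09 and 0.15 with the offset. With the muscle marker level as a covariate, 22 genes were called higher and 2 lower, and 22 of the 34 earlier calls remained.

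**Figure D1:**
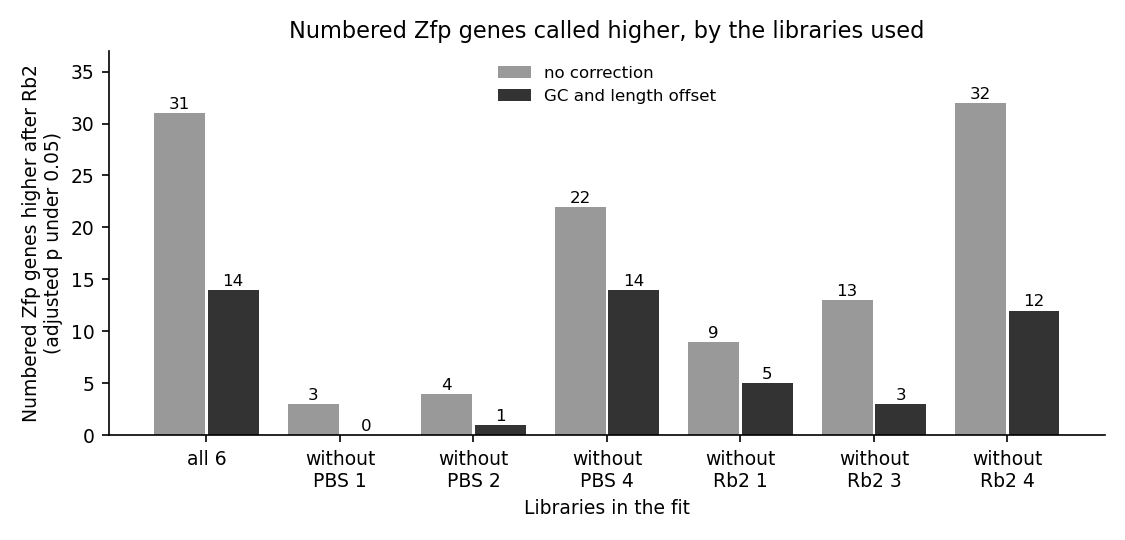
Number of numbered Zfp genes called higher after Rb2 (y axis) with all 6 libraries and with each library left out in turn (x axis), without correction (grey) and with the GC and length offset (black). The counts fall from 31 to 3 and 4 without PBS 1 and PBS 2, and from 14 to 0 and 1 with the offset.

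The shift of the family as a whole was seen library by library. Relative to each gene's mean over the 6 libraries, the median numbered Zfp gene stood at -0.13, -0.16 and -0.10 log2 units in PBS 1, 2 and 4, whereas it stood at 0.24, 0.04 and 0.09 in Rb2 1, 3 and 4. All 3 PBS libraries were below all 3 Rb2 libraries, and Rb2 1 stood highest. With the offset the medians were -0.10, -0.06 and -0.03 in the PBS libraries and 0.15, 0.01 and 0.05 in the Rb2 libraries. The groups still did not overlap, but the gap between PBS 4 and Rb2 3 was the narrowest and both lay near 0. For the KRAB genes alone the medians were -0.15, -0.25 and -0.16 against 0.27, 0.13 and 0.20 without correction, and -0.12, -0.07 and -0.04 against 0.16, 0.03 and 0.11 with it. For the genes without a KRAB pattern, Rb2 3 at -0.03 lay among the PBS libraries, which stood at -0.11, -0.03 and -0.01.

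**Figure D2:**
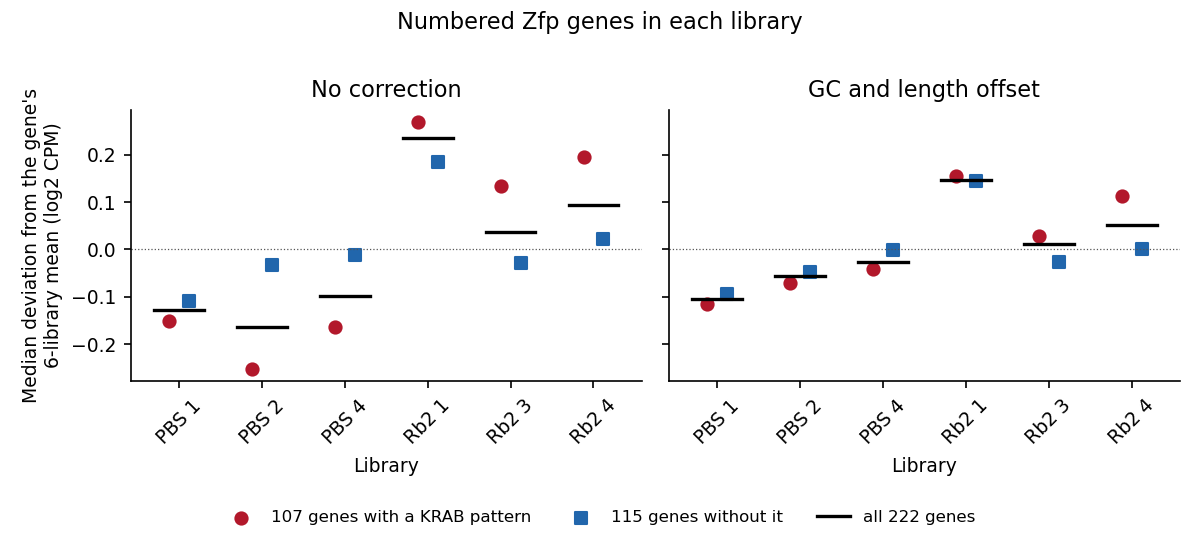
Median deviation of numbered Zfp genes from each gene's mean over 6 libraries (y axis, log2 CPM) in each library (x axis), without correction (left) and with the GC and length offset (right). Circles are 107 KRAB genes, squares 115 genes without a KRAB pattern and lines all 222; the lines of the Rb2 libraries lie above those of the PBS libraries in both panels.

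Fold change followed GC content across the 222 genes. Spearman's rho across these genes was -0.507, against -0.333 across all tested genes with a GC value, and with the offset it was -0.0123 and 0.0172. These values describe genes that share the same 6 libraries. Among the 47 genes with under 40% GC, the median log2 fold change was 0.49, against 0.29 over all tested genes of that band, and 12 were called higher (25.5%, against 13.7%). Among the 68 genes with 40 to 45% GC it was 0.34, against 0.16, and 11 were called higher (16.2%, against 9.18%). Among the 36 genes with 45 to 50% GC it was 0.28, against 0.05, and 2 were called higher (5.56%, against 6.01%). The 35 genes with 50 to 55% GC had a median of 0.00, against -0.10, with 4 higher (11.4%, against 3.69%) and 1 lower (2.86%, against 6.11%). The 36 genes with 55% GC or more had a median of -0.10, against -0.26, with 2 higher (5.56%, against 1.61%) and 2 lower (5.56%, against 11.7%).

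The median of the numbered Zfp genes was thus above that of all tested genes in every one of the 5 bands. With the offset the medians of the 5 bands were 0.14, 0.11, 0.13, 0.03 and 0.13, in order of rising GC content, while those of all tested genes lay just below 0, the lowest at -0.04. GC content was uneven among the calls as well. Of the 31 genes called higher without correction, 23 had under 45% GC and 6 had at least 50%, and all 3 called lower had at least 50%. Of the 14 called higher with the offset, 6 had under 45% GC and 7 had at least 50%.

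**Figure D3:**
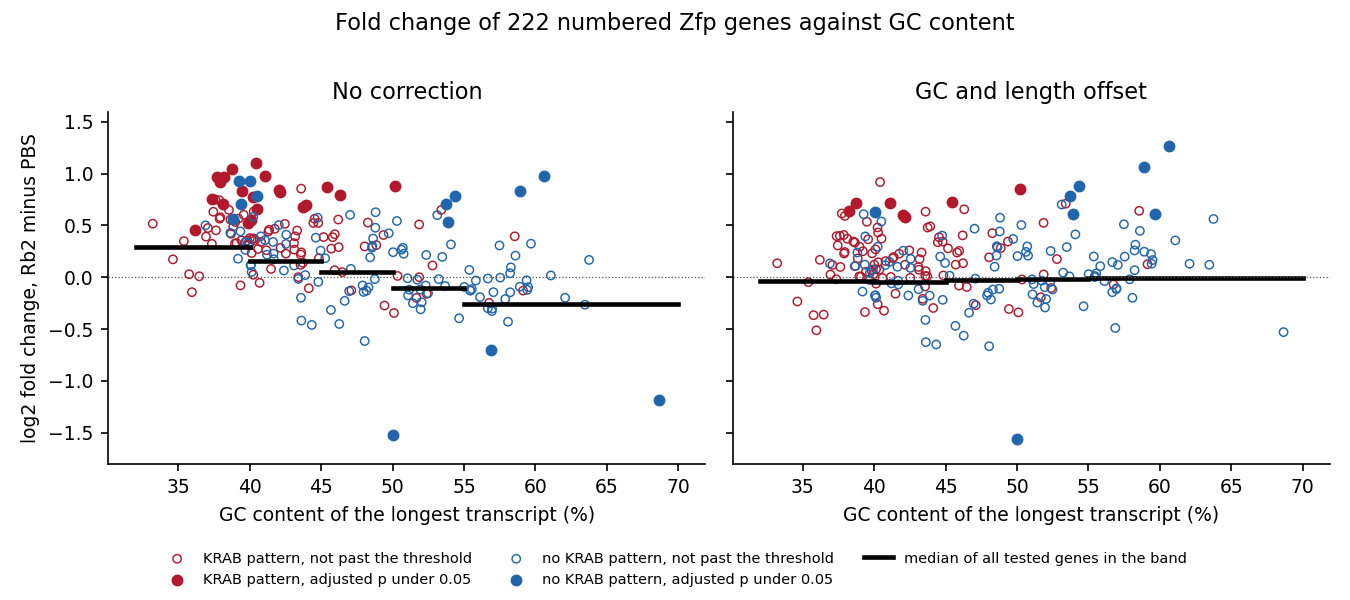
Log2 fold change of the 222 numbered Zfp genes (y axis, Rb2 minus PBS) against the GC content of the longest transcript (x axis, percent), without correction (left) and with the GC and length offset (right). Points are genes, red with a KRAB pattern and blue without, filled where the adjusted p is under 0.05; black lines are medians of all tested genes per GC band, which slope from 0.29 to -0.26 on the left and are near 0 on the right.

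Of the 8 largest rises, 5 were of KRAB genes, for most of which no role in fat is described. Zfp971 (NCBI gene 626848, chr2:178023284-178035859), a KRAB gene with 12 fingers, had TMM-normalised levels of 4.14, 4.11 and 5.47 CPM in PBS 1, 2 and 4, set against 13.4, 8.23 and 7.91 CPM in Rb2 1, 3 and 4. Rb2 1 was far above the other 2 Rb2 libraries, and the groups did not overlap. The log2 fold change was 1.10 (SE 0.23, adjusted p 0.0214), and 0.92 with the offset (adjusted p 0.0699). Of its 50-base windows, 40.05% also occur in transcripts of other genes, most often Gm14288, so its reads could be split between genes in counting. The call was lost without PBS 1, PBS 2 or Rb2 1 (adjusted p up to 0.0910).

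Zfp229 and Zfp760 are neighbouring KRAB genes on chromosome 17 with 16 and 17 fingers. Zfp229 (NCBI gene 381067, chr17:21730955-21748969) was at 4.45, 3.75 and 3.73 CPM in the PBS libraries and at 9.69, 7.71 and 7.31 CPM in the Rb2 libraries. All 3 Rb2 libraries lay well above the PBS libraries, and the log2 fold change was 1.05 (SE 0.17, adjusted p 0.0103). With the offset it was 0.72 (adjusted p 0.0227). Zfp760 (NCBI gene 240034, chr17:21707430-21725636) was at 4.93, 3.35 and 4.201 CPM against 8.65, 7.83 and 7.95 CPM, a log2 fold change of 0.97 (SE 0.18, adjusted p 0.0142), and 0.64 with the offset (adjusted p 0.0316). Without correction the Zfp229 call was lost without PBS 2 (adjusted p 0.0521), and the Zfp760 call was lost without PBS 2 or Rb2 1 (adjusted p up to 0.0606). With the offset, Zfp229 kept its call in 2 of 6 fits that left out 1 library and Zfp760 in none.

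These neighbours rose together, and for that reason 250 bases before a start site of each, from RefSeq (GRCm38.p6), are shown. Both stretches lie inside the gene intervals given above, so they are not the sequence before the first base of either gene. The GC box GGGCGG is in capitals wherever it occurs on either strand.
Zfp229, chr17:21733474-21733723, + strand: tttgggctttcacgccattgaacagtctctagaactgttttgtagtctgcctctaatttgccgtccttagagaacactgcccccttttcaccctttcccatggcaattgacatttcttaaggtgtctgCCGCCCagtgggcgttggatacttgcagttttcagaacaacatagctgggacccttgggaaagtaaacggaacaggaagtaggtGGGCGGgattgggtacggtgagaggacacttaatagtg
Zfp760, chr17:21707491-21707740, + strand: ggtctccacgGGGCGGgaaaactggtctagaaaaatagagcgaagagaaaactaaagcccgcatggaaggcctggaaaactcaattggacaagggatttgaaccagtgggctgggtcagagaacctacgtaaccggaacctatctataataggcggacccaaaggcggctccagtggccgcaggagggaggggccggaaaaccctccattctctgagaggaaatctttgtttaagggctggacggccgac
The Zfp229 stretch held 2 such matches and 7 CpG dinucleotides at 48.8% GC, and the Zfp760 stretch held 1 match and 12 CpG at 54.0% GC. RefSeq promoter windows, from 250 bases before to 50 after the start, were found for 184 of the 222 genes. GGGCGG stood in a window of 54.9% of them, against 38.2% of the 27025 genes that have such a window. The median window of the numbered Zfp genes held 16 CpG, against 7 over all windows, and had 57.0% GC against 52.7%. The 27025 genes outnumber the 16707 tested and were not held to the CPM minimum, so these are unlike sets. Whether the differences go with expression was not tested. Set against all genes, the E-box CACGTG (7.61% against 8.09%) and the cAMP response element TGACGTCA (3.26% against 2.03%) were each searched on both strands too. A match is a description of these letters only.

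Zfp617 (NCBI gene 170938, chr8:71922825-71934630), a KRAB gene with 14 fingers, had the smallest adjusted p of the rises. It was at 13.6, 12.4 and 14.1 CPM in the PBS libraries and at 27.5, 26.4 and 25.2 CPM in the Rb2 libraries, so each group was tight and they lay far apart. The log2 fold change was 0.98 (SE 0.12, adjusted p 0.00412), and 0.72 with the offset (adjusted p 0.0106). Zfp617 and the fall of Zfp366 were the only calls of the 34 that held with every 1 library left out, and the adjusted p of Zfp617 then reached 0.0333. With the offset it was lost without PBS 1 or PBS 2 (adjusted p 0.0721 and 0.0547). Zfp617 shares 40.8% of its 50-base windows with other genes, most often Gm18180, so part of its counts may come from such copies. Its neighbour Zfp961 was also called higher, at 0.84 on the log2 scale (adjusted p 0.0148) and 0.60 with the offset (adjusted p 0.0413).

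Zfp40, Zfp974 and Zfp397 completed the 8 largest rises. Zfp40, a KRAB gene with 16 fingers, was at 2.73, 2.14 and 3.14 CPM in the PBS libraries and at 5.81, 4.22 and 5.60 CPM in the Rb2 libraries. Its log2 fold change was 0.96 (adjusted p 0.0259), and the call ended with the offset (0.62, adjusted p 0.0901). Zfp974, with 21 fingers, was at 3.34, 3.24 and 4.46 CPM against 8.39, 6.68 and 5.998 CPM, a log2 fold change of 0.93 at an adjusted p of 0.0233, and its call ended with the offset too (0.61, adjusted p 0.0717). Zfp397, a SCAN gene with 10 fingers, was at 11.2, 11.004 and 11.9 CPM against 26.4, 19.0 and 19.8 CPM, a log2 fold change of 0.93 at an adjusted p of 0.0101, and it kept its call with the offset (0.63, adjusted p 0.0229). Its interval overlaps that of Zscan30 over 11931 bases, and the strand setting of the counting is not given, so reads of these genes may not be told apart. The same limit holds for 11 of the 34 called genes, among them Zfp974 (Gm26891, 2067 bases), Zfp503, Zfp398, Zfp839 and Zfp74. Without correction the Zfp397 call was lost without PBS 1 (adjusted p 0.0524), and with the offset it held in 2 of the 6 fits that left out 1 library (adjusted p up to 0.105). The calls of Zfp40 and Zfp974 were lost without PBS 1, PBS 2 or Rb2 1, that of Zfp974 also without Rb2 3.

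Genes that rose from a GC-rich transcript formed a second group, in which the offset raised the fold change of every gene described here except Zfp30. Zfp703 (NCBI gene 353310, chr8:26977336-26981462), a corepressor-binding transcription regulator of the NET family with 60.6% GC, was at 50.2, 61.2 and 59.9 CPM in the PBS libraries and at 143, 79.4 and 115 CPM in the Rb2 libraries. Rb2 1 was highest and Rb2 3 lowest of the treated libraries, still above all PBS libraries. The log2 fold change was 0.98 (SE 0.21, adjusted p 0.0231), and 1.27 with the offset (adjusted p 0.0181). Zfp703 also had the highest level per transcript length of the 222 genes, 26.9 CPM per kb. Zfp503 (Nolz1), its paralog, was at 3.72, 4.80 and 5.24 CPM against 6.28, 8.74 and 9.48 CPM, a log2 fold change of 0.83 at an adjusted p of 0.0343, and 1.07 with the offset (adjusted p 0.0180). Both members of the NET family thus rose, in different rank order over the Rb2 libraries: Rb2 1 was highest for Zfp703 and lowest for Zfp503.

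Zfp395, a DNA-binding protein first described at the huntingtin promoter, was at 11.3, 12.6 and 13.4 CPM in the PBS libraries and at 24.6, 19.4 and 20.5 CPM in the Rb2 libraries. Its log2 fold change was 0.78 (SE 0.14, adjusted p 0.0125), and 0.88 with the offset (adjusted p 0.0103). Zfp629, with 19 fingers, was at 13.2, 13.6 and 19.5 CPM against 25.1, 25.2 and 25.2 CPM. The Rb2 libraries were nearly equal, while PBS 4 stood above the other PBS libraries. Its log2 fold change was 0.70 (adjusted p 0.0286), and 0.79 with the offset (adjusted p 0.0277). Zfp30, a KRAB gene known to promote adipogenesis through a Pparg2 enhancer derived from a retrotransposon, was at 2.23, 2.45 and 3.79 CPM against 5.52, 5.28 and 4.86 CPM. Its log2 fold change was 0.89 (adjusted p 0.0403), and 0.85 with the offset (adjusted p 0.04996, just under the threshold). Zfp768, with 10 fingers, was called with the offset only (0.32, adjusted p 0.166, against 0.61, adjusted p 0.0249). Without PBS 1 each of Zfp703, Zfp503, Zfp395, Zfp629 and Zfp30 lost its call in both fits, and without PBS 2 each lost it in both fits except Zfp395 with the offset.

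**Figure D4:**
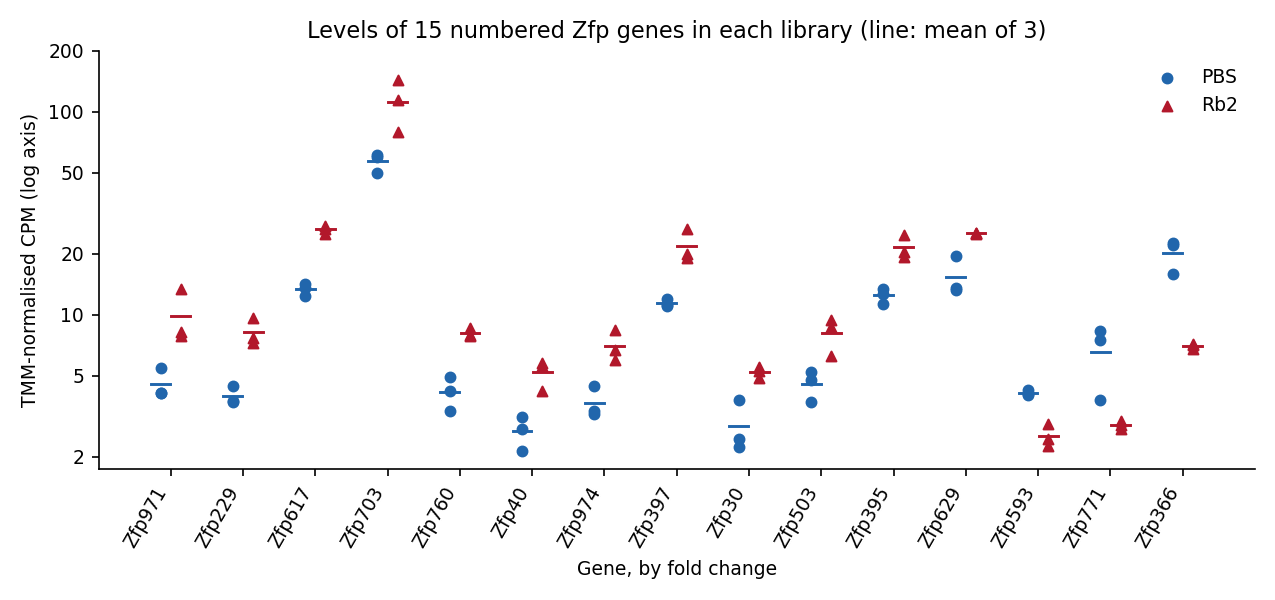
TMM-normalised CPM (y axis, log scale) of 15 numbered Zfp genes past the threshold, ordered by fold change (x axis), in each PBS library (blue circles) and Rb2 library (red triangles), with lines at the mean of 3. The groups do not overlap in any of the 15 genes, and Zfp366, at the right, has the largest fall.

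Only 3 of the 222 genes were called lower, and 1 of them kept its call without any 1 library, with and without the offset. Zfp366 (DC-SCRIPT; NCBI gene 238803, chr13:99184823-99247032), a nuclear receptor cofactor best known from dendritic cells, has 11 fingers and no KRAB pattern. It was at 22.5, 15.98 and 22.1 CPM in the PBS libraries and at 7.19, 6.79 and 7.07 CPM in the Rb2 libraries. The Rb2 libraries were almost equal and lay far below the lowest PBS library. The log2 fold change was -1.53 (SE 0.16, adjusted p 0.00258), and -1.56 with the offset (adjusted p 0.00492). With any 1 library left out its adjusted p was at most 0.0250, and 0.0412 with the offset. Endothelial cell markers were lower too: 4 of the 10 were called lower, against 5.11% of all tested genes, and none lay above 0. Their summed level was 1568, 1772 and 1692 CPM in the PBS libraries and 862, 996 and 1297 CPM in the Rb2 libraries. Of 10 macrophage markers 4 were called lower and 1 lay above 0. Their sums were 150, 120 and 120 CPM against 84.9, 79.8 and 109 CPM. With the offset 4 endothelial markers and 1 macrophage marker were called lower. The median log2 fold change was -0.66 for endothelial and -0.46 for macrophage markers. It was -0.70 for fibroblast and progenitor, -0.70 for lymphocyte and -0.45 for smooth muscle and pericyte markers. No marker of these last types was called without the offset. For brown adipocyte markers it was -0.11, with 2 of 10 called lower. The part of any cell type in the fall of Zfp366 was not tested.

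Zfp771, with 8 fingers and the highest GC content of the 222 genes at 68.7%, was at 3.81, 8.315 and 7.49 CPM in the PBS libraries and at 2.88, 2.73 and 3.02 CPM in the Rb2 libraries. PBS 1 lay nearer to the Rb2 libraries than to PBS 2 and 4. The log2 fold change of -1.19 (SE 0.27, adjusted p 0.0290) became -0.53 with the offset (adjusted p 0.118). Zfp593, whose yeast counterpart acts in the maturation of the large ribosomal subunit, was at 4.01, 4.26 and 4.06 CPM against 2.44, 2.27 and 2.89 CPM, a log2 fold change of -0.70 at an adjusted p of 0.0449, and -0.49 with the offset (adjusted p 0.0990). Each of these falls held in 1 of the 6 fits that left out 1 library, that of Zfp771 without PBS 1 and that of Zfp593 without Rb2 4. The interval of Zfp593 overlaps that of E130218I03Rik over 1829 bases.

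Split by class, KRAB genes made up 21 of the 31 rises. Of the 107 genes with a KRAB pattern, 21 were called higher (19.6%, against 5.33% of all tested genes) and 0 lower by edgeR. Their median log2 fold change was 0.40 and their median GC content 41.3%. None of them was lower at an unadjusted p under 0.05 without the offset, 2 were with it, and DESeq2 called 39 higher and 0 lower and limma-voom 18 and 0. Over all 16707 tested genes, 5020 were at that p in either direction, 4767 with the offset, and DESeq2 called 3295 and limma-voom 1200. Of the 115 genes without a KRAB pattern, 10 were called higher (8.70%) and 3 lower (2.61%, against 5.11% of all tested genes), at a median of 0.07 and a GC content of 50.03%. With the offset the medians were 0.17 and 0.09, and each class had 7 genes called higher (6.54% and 6.09%, against 4.27%). Within the range under 45% GC, 79 KRAB genes had a median of 0.45 (0.17 with the offset) and 36 others one of 0.33 (0.08). At 45% GC and above, 28 KRAB genes had a median of 0.29 (0.18) and 79 others one of -0.03 (0.10). The difference between the classes was not tested.

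By finger number, the 114 genes with 10 or more C2H2 fingers had 21 called higher (18.4%) and 1 lower at a median of 0.35. Those with 1 to 9 had 7 higher (6.93%, near the 5.33% of all tested genes) and 2 lower at a median of 0.17. With the offset the first class had 9 higher (7.89%) and 1 lower at 0.15. The second had 2 higher (1.98%, below the 4.27% of all tested genes) and 0 lower at 0.09. Among the 7 genes in which the pattern found no C2H2 finger, Zfp503, Zfp703 and Zfp839 were called higher, in both fits. For Zfp839 it was 0.53 on the log2 scale (adjusted p 0.0427), and 0.61 with the offset (adjusted p 0.0238). The other 4 had log2 fold changes from -0.32 (Zfp185) to 0.43 (Zfp326), and from -0.47 (Zfp185) to 0.41 (Zfp36) with the offset, and did not pass. At least 25% of 50-base windows were shared with another gene in 17 of the 222 genes, of which Zfp617, Zfp965 and Zfp971 were called. All windows of Zfp965 also occur in other genes, most often Zfp973. Its log2 fold change of 0.45 (adjusted p 0.0434, and 0.17 and 0.383 with the offset) therefore cannot be assigned to 1 gene. The 205 genes under that limit had 28 higher (13.7%), 3 lower and a median of 0.28.

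The genes lie in clusters, with 53 on chromosome 7 and 29 on chromosome 17. Joining neighbours with at most 300 kb between them gave 13 neighbourhoods of at least 4 of the 222 genes, 79 genes in all. Without correction 11 of the 13 had a median log2 fold change above 0. That of chr7:6131489-6396637 went from 0.10 to -0.05 with the offset. The largest, chr17:21450374-22456689, held 13 genes, all with a KRAB pattern. Its median was 0.42 (0.11 with the offset), 12 of 13 genes lay above 0, and Zfp760, Zfp229 and Zfp942 were called higher, Zfp942 without the offset only. In chr7:29768552-30169775, 10 of 11 genes lay above 0 at a median of 0.30 (0.19), and Zfp30 and Zfp74 were called, Zfp74 without the offset only. Both neighbourhoods with a median below 0 without correction were GC-rich, and neither median was below 0 with the offset. Genes of chr6:47835633-48086986 had a median GC content of 55.4% and a median log2 fold change of -0.13 (0.002 with the offset). Zfp398 at the edge of this neighbourhood, with 45.4% GC, rose (0.87, adjusted p 0.0123, and 0.73 and 0.0223 with the offset). Genes of chr7:4915181-5033226 had a median GC content of 61.2% and a median log2 fold change of -0.18 (0.18 with the offset), and none was called. In chr7:127233061-127885996, 9 genes had a median of 0.00 (0.05 with the offset), with Zfp771 called lower and Zfp629 called higher without correction.

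**Figure D5:**
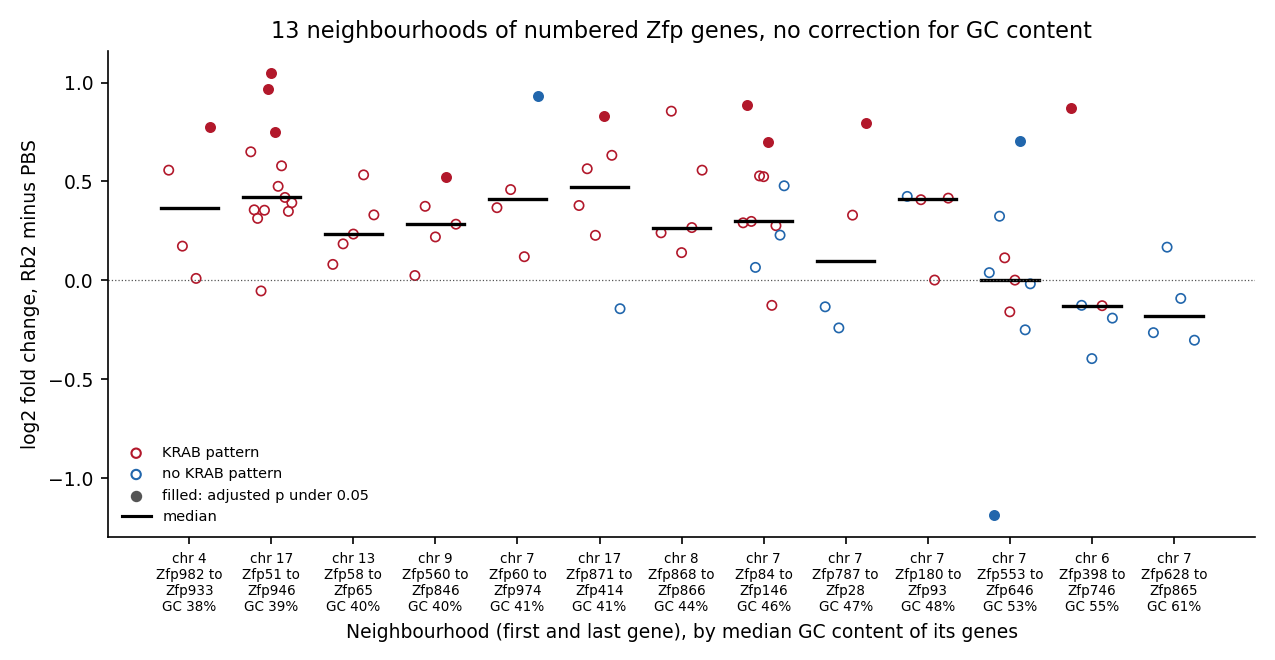
Log2 fold change (y axis, Rb2 minus PBS, no correction) of numbered Zfp genes in 13 chromosomal neighbourhoods of at least 4 of them (x axis, named by first and last gene and ordered by median GC content). Points are genes, red with a KRAB pattern and blue without, filled where called, and lines are medians, which lie below 0 in the 2 neighbourhoods with the highest GC content.

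None of 6 members in a list of genes known from fat biology, which did not hold Zfp30, passed the test. Zfp423, a determinant of the adipocyte lineage that restrains the thermogenic programme, was at 13.5, 10.8 and 11.8 CPM in the PBS libraries and at 10.5, 10.3 and 8.59 CPM in the Rb2 libraries. The groups did not overlap, but the log2 fold change of -0.30 had an adjusted p of 0.193 (-0.14 and 0.565 with the offset). Zfp467, which favours adipocytes over osteoblasts, had -0.21 (adjusted p 0.441, and -0.02 and 0.952 with the offset), and Zfp407, which acts with Pparg on glucose uptake, had -0.13 (0.681, and -0.21 and 0.403). Zfp638, a cofactor of C/EBP proteins, had 0.05 (0.796, and -0.20 and 0.278 with the offset), Zfp217, a regulator of adipogenesis, had -0.02 (0.965, and -0.03 and 0.945), and Zfp36 had 0.32 (0.2198, and 0.41 and 0.132). Zfp521, an inhibitor of adipogenesis below the CPM minimum and so outside the 222 genes, had -0.71 (adjusted p 0.0704, and -0.73 and 0.0761 with the offset). None of the 7 genes of this list was called by edgeR with or without the offset. At an unadjusted p under 0.05, 1 was lower and 0 were higher without the offset, and DESeq2 called 1 lower and limma-voom 0. With the offset 1 was lower and 1 higher at that unadjusted p. Over all 16707 tested genes, 5020 were at that p in either direction, 4767 with the offset, and DESeq2 called 3295 and limma-voom 1200.

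The same held for 13 tested genes with another well known role, none of which was called in either fit, at a median log2 fold change of 0.21 (0.11 with the offset). Over all 16707 tested genes, 5020 were at an unadjusted p under 0.05 in either direction, 4767 with the offset, and DESeq2 called 3295 and limma-voom 1200. Of these 13 genes, 4 were higher and 0 lower at such a p without the offset and 1 and 0 with it. DESeq2 called 1 of the 13 higher and limma-voom 0. Among them, Zfp143, a promoter factor of housekeeping genes, was at 5.08, 4.81 and 5.49 CPM against 5.87, 8.94 and 8.10 CPM, without overlap (0.58, adjusted p 0.0748, and 0.40 and 0.188 with the offset). Zfp148 (ZBP-89), a repressor and activator at GC-rich sites, was at 23.0, 20.7 and 20.7 CPM against 29.4, 27.0 and 24.6 CPM, also without overlap (0.33, adjusted p 0.110, and 0.08 and 0.607 with the offset). The groups overlapped for the retrovirus silencer Zfp809 (0.39, adjusted p 0.170), for Zfp568, the repressor of placental Igf2 (-0.13, 0.773), and for the pluripotency factor Zfp281 (0.11, 0.695). They also overlapped for Zfp326 (0.43, 0.146), which couples splicing to elongation, the neural progenitor factor Zfp335 (-0.03, 0.932), Zfp110, a partner of the neurotrophin receptor (0.05, 0.817), Zfp64 (0.21, 0.521) and the RNA-binding Zfp106 (0.08, 0.784). With the offset the log2 fold changes of these 8 genes ran from -0.27 (Zfp568) to 0.45 (Zfp64), and those of Zfp281, Zfp110, Zfp106 and Zfp335 had the other sign. Zfp57, the guardian of imprints, was tested but fell below the CPM minimum (0.29, 0.676, and 0.14 and 0.853 with the offset).

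Of the 5 numbered Zfp genes with the highest level per transcript length, Zfp703 alone passed the test. Zfp91, a ubiquitin ligase, had 23.0 CPM per kb, with libraries at 117, 104 and 111 CPM against 158, 158 and 115 CPM and a log2 fold change of 0.37 (adjusted p 0.144; with the offset 0.29 and 0.199). Its interval overlaps that of Gm44505 over 29185 bases. Zfp982, a KRAB gene, had 19.9 CPM per kb, with libraries at 27.2, 20.01 and 24.7 CPM against 45.5, 32.9 and 27.4 CPM and a log2 fold change of 0.56 (adjusted p 0.0978; with the offset 0.34 and 0.315). Zfp207 (BuGZ), a spindle assembly protein, had 19.0 CPM per kb and a log2 fold change of 0.17 (adjusted p 0.487), which turned to -0.07 with the offset (adjusted p 0.770). Zfp706 had 14.3 CPM per kb and a log2 fold change of -0.02 (adjusted p 0.950; with the offset -0.23 and 0.269). The median numbered Zfp gene had 1.83 CPM per kb.

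A list of 37 tested genes covered KRAB corepressors and wider heterochromatin machinery, and it also held Zfp809, itself 1 of the 222 genes. For short, genes of this list are named corepressors in the sections below. Of the 37, 2 were called higher (5.41%, near the 5.33% of all tested genes) and 0 lower by edgeR. The median log2 fold change of the list was 0.17 (0.08 with the offset). At an unadjusted p under 0.05, 12 were higher and 3 lower without the offset and 6 and 1 with it, and DESeq2 called 6 higher and 2 lower and limma-voom 1 and 0. Over all 16707 tested genes, 5020 were at that p in either direction, 4767 with the offset, and DESeq2 called 3295 and limma-voom 1200. Uhrf1, which recruits the maintenance DNA methyltransferase to newly replicated DNA, was at 1.68, 2.19 and 1.80 CPM in the PBS libraries and at 6.04, 5.49 and 7.26 CPM in the Rb2 libraries. Its log2 fold change was 1.73 (adjusted p 0.00338), and 1.80 with the offset (adjusted p 0.00433). Mphosph8, a subunit of the HUSH silencing complex, had 0.58 (adjusted p 0.0411) and did not pass with the offset (0.35, adjusted p 0.142), where Ehmt1, a histone H3K9 methyltransferase, did (0.39, adjusted p 0.0446). Trim28 itself was at 30.7, 35.9 and 32.6 CPM against 24.9, 28.4 and 28.4 CPM. Its groups did not overlap, and its log2 fold change of -0.28 (adjusted p 0.160) became -0.03 with the offset (adjusted p 0.874). Setdb1 had 0.39 (adjusted p 0.0852, and 0.30 and 0.112 with the offset).

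Other zinc finger families were taken with the same CPM minimum for comparison. Among 60 genes with symbols starting Zkscan, Zscan, Zbtb, Zfhx or Klf, 10 were called higher (16.7%, against 5.33% of all tested genes) and 2 lower (3.33%, against 5.11%), at a median log2 fold change of 0.25 (0.13 with the offset). With the offset 8 were called higher and 4 lower. The 8 Zkscan genes, which join SCAN and often KRAB domains to zinc fingers, had a median of 0.38, and Zkscan8 (1.01, adjusted p 0.0101) and Zkscan7 (1.001, adjusted p 0.0232) rose. The 32 Zbtb genes had 5 higher at a median of 0.27 (4 higher and 1 lower with the offset), led by Zbtb26 (1.09, adjusted p 0.0103). The 11 Klf genes had a median of -0.53, with Klf7 (-0.87, adjusted p 0.0101) and Klf3 (-0.51, adjusted p 0.0350) lower, while Klf15 was higher (1.05, adjusted p 0.0329). With the offset the calls of Zkscan8, Zkscan7, Zbtb26, Klf7, Klf3 and Klf15 remained, and Klf6 was lower too (-0.83, adjusted p 0.0185). Zbtb14, Zbtb41 and Zbtb6 lost their calls (adjusted p 0.0619, 0.117 and 0.0683), while Zbtb7a and Zbtb7b gained one. The 115 tested numbered Zfp genes that missed the CPM minimum had 14 called higher (12.2%, against 5.33% of all tested genes) and 0 lower by edgeR. Their median was 0.30 (0.20 with the offset). At an unadjusted p under 0.05, 42 of them were higher and 3 lower, beside 5020 of all 16707 tested genes in either direction. DESeq2 called 21 and 2 (3295 over all tested genes) and limma-voom 12 and 0 (1200 over all). No difference between these groups of genes was tested.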

How the data were processed

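Polyadenylated RNA of 6 brown fat samples was read from 1 table of counts per gene as the authors deposited it: whole numbers, not normalized. HISAT2, Bowtie2, StringTie, Trimmomatic and the mm10 genome were used, per the submitters' processing notes, and neither their roles nor the counting program and its strand setting are stated. The column numbers do not match the replicate numbers of the titles, so they name libraries only. A count of 0 allows 3 counts, or 0.0359 CPM in the smallest library, for counting error only.

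Counts were tested with edgeR 4.0.16 (R 4.3.3; TMM, filterByExpr with a count minimum of 10) on all genes, which left 16707, with the threshold at a Benjamini-Hochberg adjusted p of 0.05. The SE is the log2 fold change over the root of F. The offset was a natural spline per library with 5 degrees of freedom each for GC content and log length of the longest GENCODE transcript, known for 94.4% of tested genes and all 222 numbered Zfp genes. limma 3.58.1 and DESeq2 1.42.0 gave alternatives. The fits were tested on simulated data. Motifs of fingers and of KRAB and SCAN boxes were searched in translated GENCODE coding sequences, because no protein table was used. Positions are of RefSeq GRCm38, the assembly mm10 stands for. The members and gene lists were chosen with earlier results of these data known. Genes named are the 8 largest rises and falls past the threshold, the 6 largest with the offset, the 5 highest per length, the known-role members, called corepressors with Trim28 and Setdb1, and the genes next to the CPM minimum; others were named after their values were seen. Separate mice are stated per group in the labels' design text. No column of another series was present.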

Additional observations from a re-analysis of the deposited data

How the results depend on the processing

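Of the 222 genes, 31 were called higher, 3 lower. Scaling by library size alone gave 17 higher, a median log2 fold change of 0.19 and 1 corepressor. The DESeq2 Wald test gave 57 higher, 8 corepressors, 23 genes of the other zinc finger families and 3295 genes in all, against 1743. limma-voom gave 1 corepressor, and a count minimum of 50 gave 4 and 19 of the other families. An adjusted p under 0.1 gave 65 higher, 5 lower, 10 corepressors, 25 of the other families and 3392 genes; a 2-fold minimum gave 2 higher, 1 corepressor, 5 of the other families and 564 genes. At least 5 CPM in all 6 libraries, a rule that keeps 116 genes, gave 15 higher and 1 lower. The GC and length offset gave 14 higher, 1 lower and a median of 0.12, and an offset for GC content alone 14, 1, 0.13 and 1 corepressor. With the libraries' GC trend as a covariate edgeR called 0 genes (1258 at an unadjusted p under 0.05, 13 of the 222 higher and 2 lower, 2 corepressors, 6 of the other families), and the median was 0.15. With the muscle covariate 1004 genes, 1 corepressor and 6 of the other families were called. Without PBS 1 and PBS 2 edgeR called 0 genes (2063 unadjusted, of the 222 37 higher and 5 lower, 3 corepressors, 14 of the other families).

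The replicate block on column numbers 1 and 4, found in both groups, gave 96 genes (2323 unadjusted). It gave 0 higher of the 222 (38 unadjusted), 1 lower, 1 corepressor and 0 of the other families (18 unadjusted). Libraries of the same number deviated in opposite directions (r of -0.197 and -0.215), and nothing says that a number marks a shared mouse or day.

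Without any 1 library, the range was 303 to 2269 genes called, 3 to 32 higher, 1 to 2 lower, 1 to 4 corepressors and 1 to 16 of the other families. With the offset as well, a combination chosen after seeing the data like the fit without PBS 1 and PBS 2, the genes called were 41 and 128 without PBS 1 and 2, 327 and 264 without Rb2 1 and 3, and 1784 at most. Of the 222, 0 to 14 were higher (12 without Rb2 4) and 1 to 4 lower, with 1 corepressor, 0 to 15 of the other families and medians of 0.10 and 0.11 without PBS 1 and 2, 0.0919 without Rb2 1 and up to 0.15. Beside the counts of 0, at least 30 of the 222 genes were higher, and 23 of the other families changed, at an unadjusted p under 0.05. In those fits 3441 to 3915 of all tested genes were at such a p. The cause of these shifts was not tested. The median of the 222 genes was above 0 in every setting run. The 15 called genes that the naming rule gave kept their sign in all settings, with the threshold missed in 48 of 180 values with all libraries kept and 116 of 195 with libraries left out. Of 22 genes from that rule that were not called, 14 had the other sign in some setting and 7 of 550 values passed. The median level of the 222 genes was 6.88 CPM. The rule asked for at least 2 CPM in every library, so it had to lie above the 0.0359 CPM that a count of 0 allows in the smallest library.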
